A study of Homo sapiens with 6 samples.

Results

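The transcripts described here encode 10 amino acid transporters of the cell surface whose genes are known to respond to nutrient and other stresses: SLC7A5, SLC3A2, SLC7A11, SLC7A1, SLC1A4, SLC1A5, SLC6A9, SLC38A1, SLC38A2 and SLC43A1. They were chosen by name, with earlier results of these data known. All 10 were matched by Ensembl identifier among the 63086 genes of the deposited count table. RNA was taken from A375, a human cell line derived from a melanoma and grown in DMEM with fetal bovine serum, with 3 libraries from wild-type cells and 3 from cells whose DUS1L gene had been edited with CRISPR/Cas9. The DUS1L product reduces particular uridines of tRNAs to dihydrouridine. Knockout cells had been selected as clones, whereas wild-type cells were grown alongside with no targeting. Neither the number of clones nor the edited alleles were given in the sources used here, so an effect of the edit and a difference between a clone and the starting population cannot be told apart. The submitters call the libraries of each genotype biological replicates.

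Amino acids cross the plasma membrane through carriers that differ in what they move and in what drives them. SLC7A5 (LAT1) and SLC7A11 (xCT) are light chains that each pair with the same heavy chain, SLC3A2 (4F2hc, CD98), to exchange one amino acid for another. SLC38A1, SLC38A2 and SLC6A9 take up neutral amino acids with sodium, SLC1A4 and SLC1A5 exchange small neutral amino acids and glutamine, SLC7A1 carries arginine and lysine, and SLC43A1 lets branched-chain and other large neutral amino acids pass down their gradient. When amino acids run short or the endoplasmic reticulum is stressed, phosphorylation of eIF2 alpha raises translation of the transcription factor ATF4, which acts on many of these genes through a composite C/EBP-ATF element.

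Promoter sequences of 9 members were compared because the members are commonly described as targets of ATF4. Windows from 250 bases before to 50 bases after each annotated start were taken from RefSeq (GRCh38.p14), which gave 16 windows for those 9 genes; SLC7A11 was not in that set. The letters TGATGNAA, the shape of a C/EBP-ATF element, were searched on both strands and were found in windows of 5 members, SLC3A2, SLC7A1, SLC1A4, SLC1A5 and SLC38A1. They stood in 5 of the 16 windows, against 3.62% of all 35116 promoter windows, and 2.9% of the 10853 tested protein-coding genes in the set had such a window. The matches are written 5′ to 3′ on the strand of the gene, with the matching letters in capitals. A match on the opposite strand reads as its reverse complement.
SLC3A2: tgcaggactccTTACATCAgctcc
SLC7A1: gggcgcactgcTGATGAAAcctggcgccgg
SLC1A4: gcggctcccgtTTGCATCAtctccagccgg
SLC1A5: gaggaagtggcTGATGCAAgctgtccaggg
SLC38A1: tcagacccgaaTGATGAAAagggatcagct
These stretches lie at chr11:62881725-62881748 (plus strand), chr13:29595663-29595692 (minus), chr2:64989381-64989410 (plus), chr19:46784893-46784922 (minus) and chr12:46266502-46266531 (minus). Only the SLC7A1 match lies at the single annotated start of its gene, where it begins at base 8 of the transcript. The other 4 lie at internal starts, 25590 bases (SLC3A2), 920 bases (SLC1A4), 3780 bases (SLC1A5) and 1471 bases (SLC38A1) downstream of the first start in the set. In GENCODE, SLC38A1 starts at base 46270017, upstream of both of its starts in the set, and sequence there was not searched. No GENCODE transcript of SLC38A1 held the bases checked just downstream of either start in the set. Gene counts do not show which start was used, and a match of letters does not show that a factor binds.

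For SLC7A5 and SLC38A2, whose fitted changes went in opposite directions, the 250 bases before the only start in the set are shown. The fall of SLC38A2 was small (log2 fold change -0.13, edgeR adjusted p = 0.0456), and its call was lost in 7 of 14 alternative fits. Capitals mark any match to TGATGNAA, TGACNNNGC (the core of an antioxidant response element), TGACTCA (an AP-1 site) or CACGTG (an E-box), each searched on both strands. A TGACTCA followed by GC is also counted as TGACNNNGC, as happens once in SLC3A2.
SLC7A5: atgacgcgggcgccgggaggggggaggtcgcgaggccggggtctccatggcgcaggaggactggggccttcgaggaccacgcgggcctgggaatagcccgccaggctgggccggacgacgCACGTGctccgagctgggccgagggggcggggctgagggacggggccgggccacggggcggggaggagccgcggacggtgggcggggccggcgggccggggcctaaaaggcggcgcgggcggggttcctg
SLC38A2: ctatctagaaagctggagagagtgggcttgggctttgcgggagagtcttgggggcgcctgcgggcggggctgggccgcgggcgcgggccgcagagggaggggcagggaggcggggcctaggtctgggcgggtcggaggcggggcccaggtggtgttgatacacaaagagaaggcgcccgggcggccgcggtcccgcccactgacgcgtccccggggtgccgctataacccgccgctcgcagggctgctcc
The SLC7A5 stretch is chr16:87869508-87869757 and the SLC38A2 stretch chr12:46372774-46373023, both on the minus strand. SLC7A5 held 1 CACGTG in this stretch and 1 TGACNNNGC that begins at base -2 and runs across the start. SLC38A2 held no match to any of the 4 motifs in its window, and SLC7A5 held no TGATGNAA in its window either. Sequence outside the windows, most of each gene included, was not searched. The part of these motifs in the changes was not tested. Among the 9 members, TGACNNNGC was found in 4, TGACTCA in 2 and CACGTG in 3, against 19.1%, 5.05% and 12.6% of the tested protein-coding genes.

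The libraries held between 17121307 and 18861493 counts after rounding of the authors' estimated counts. Levels are given as CPM, the count scaled to a common library size, on which a count of 3 is 0.16 to 0.18 CPM. The DUS1L transcript was at 79.95, 75.7 and 77.0 CPM with the gene intact and at 55.4, 54.7 and 53.1 CPM after editing (log2 fold change -0.51, SE 0.06, edgeR adjusted p = 1.7e-06). It was lower in all knockout libraries but present, and whether protein was made is not measured here. Wild-type replicate 1 stood apart from the other wild-type libraries on the second principal component (31.6 against -15.5 and -16.3, 13.7% of the variance), so values without it are given where it matters. All 8 melanoma markers listed had enough counts to be tested, of which 2 were called higher (AXL and NGFR, log2 fold changes 0.58 and 0.21) and 4 lower (S100B, SOX10, MIA and CSPG4, at -0.90, -0.33, -0.28 and -0.21). SOX10, a defining transcription factor of this lineage, was at 603.8 ± 16.9 and 480.5 ± 33.8 CPM (SD, n = 3 in each genotype). The leukocyte marker CD3E and the keratinocyte markers KRT5 and KRT1 had no counts in any library. The keratinocyte markers KRT10 (mean 54.1 CPM in wild-type, 52.7 CPM in knockout libraries) and KRT14 (2.71 and 2.95 CPM) were not called. TP63 and DSG3 had too few counts to be tested. Of the epithelial markers, KRT18 was called higher (log2 fold change 0.22, edgeR adjusted p = 0.00152) and CLDN4 lower (-0.72, adjusted p = 5.88e-05). KRT8 was not called, and EPCAM, CDH1 and KRT19 had too few counts to be tested. Summed leukocyte markers lay at 37.2 to 41.4 CPM in wild-type and at 41.7 to 45.1 CPM in knockout libraries, most of it CD68, which was not called. In that list ITGAM was called higher (2.55 ± 0.21 and 8.09 ± 2.93 CPM, edgeR adjusted p = 3.55e-05) and CORO1A lower (log2 fold change -0.50, adjusted p = 0.00383). Summed fibroblast markers lay at 33.6 to 98.0 CPM in wild-type and 80.8 to 179.5 CPM in knockout samples, highest in knockout replicate 2 through COL1A1 (100.8 CPM) and COL1A2 (57.9 CPM), and none of the 6 was called. The part of these markers in the results was not tested.

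Of the 10 transporter transcripts, 8 were higher and 1 was lower in the DUS1L knockout (edgeR quasi-likelihood test, adjusted p under 0.05 over 16046 genes), and SLC43A1 was not called. Over all genes tested, 20.5% were called higher, 20.7% lower and 41.2% in either direction. The members' median log2 fold change was 0.38, against 0.00 over all genes tested. Only SLC7A5 and SLC3A2 changed by more than 2-fold, and SLC1A5 was the third member past 1.5-fold. All knockout libraries lay above all wild-type libraries in 7 members and below them in 1, where 25.4% and 25.8% of all genes did so (51.1% in either direction). Each member had at least 236 counts in every library, so none depended on the filter on low counts.

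**Figure D1:**
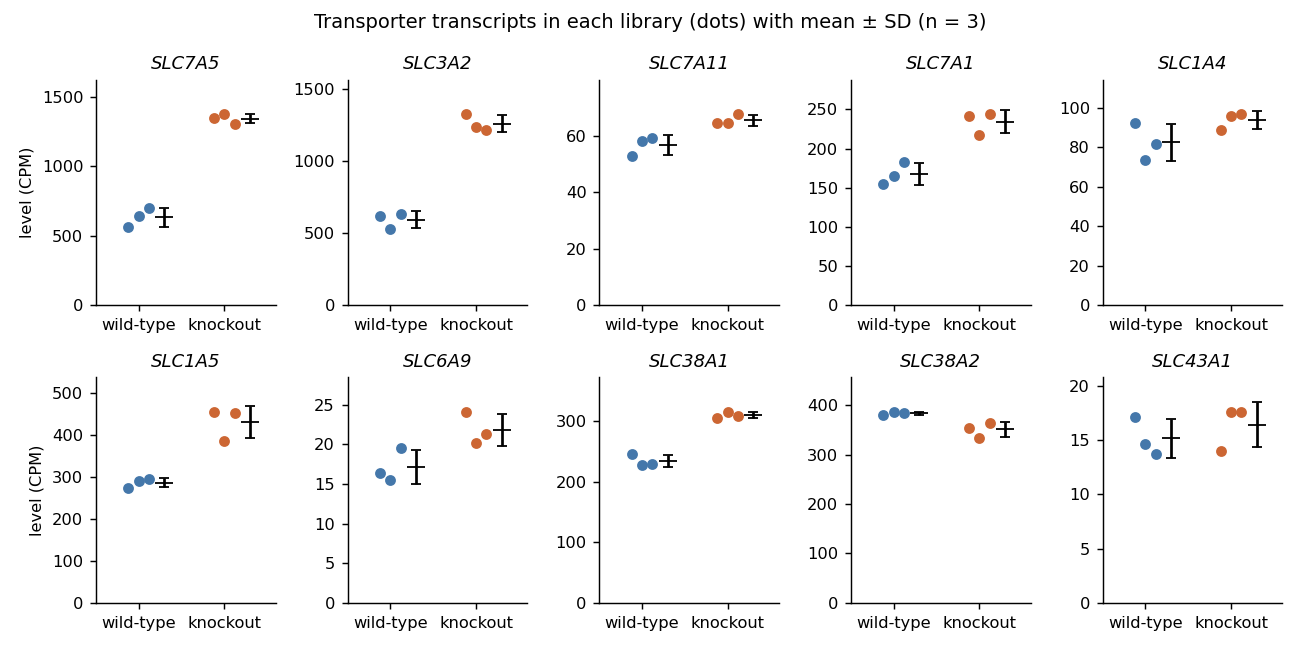
Level of each transporter transcript in CPM (vertical axis from 0) in 3 wild-type and 3 DUS1L knockout libraries (dots), with mean and SD. SLC7A5 and SLC3A2 show the widest gap between genotypes, SLC38A2 is slightly lower in knockout libraries, and the groups overlap for SLC1A4 and SLC43A1.

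The paired chains of the LAT1 exchanger had the largest changes of the 10 members. SLC7A5, the light chain that imports leucine and other large neutral amino acids, stood at 563.4, 640.6 and 697.6 CPM in wild-type replicates 1 to 3 and at 1348, 1376 and 1307 CPM in knockout replicates 1 to 3. The lowest knockout library was well above the highest wild-type library. SLC7A5 (ENSG00000103257.9, chromosome 16 from 87830023 to 87869507, minus strand, GRCh38) rose 2.12-fold (95% confidence interval 1.93 to 2.33, log2 fold change 1.08, SE 0.06, edgeR adjusted p = 8.96e-10). Of all genes tested, 5.18% had a change of larger size in either direction. Its pseudogene copies SLC7A5P2 and SLC7A5P1 had at most 5 and 0 counts in any library, so few reads were assigned to them.

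SLC3A2, the glycoprotein heavy chain that brings the light chains to the cell surface, stood at 621.2, 527.1 and 633.5 CPM in the 3 wild-type cultures and at 1325, 1235 and 1215 CPM in knockout libraries. Again the genotypes did not overlap. SLC3A2 (ENSG00000168003.19, chromosome 11 from 62856004 to 62888880, plus strand) rose 2.12-fold (95% confidence interval 1.93 to 2.33, log2 fold change 1.08, SE 0.06, edgeR adjusted p = 9.37e-10). The log2 ratio of SLC7A5 to SLC3A2 counts, which does not depend on scaling between libraries, was -0.14, 0.28 and 0.14 in wild-type and 0.02, 0.16 and 0.11 in knockout libraries. The mean ratio was 0.09 ± 0.21 in wild-type and 0.10 ± 0.07 in knockout libraries (SD, n = 3 each, exact two-sided permutation p = 1), and the 2 sets of values overlapped. With 3 libraries a group that test cannot give a p below 0.1, and a p of this kind does not show that the chains changed alike. Leaving out wild-type replicate 1 moved the difference in mean ratio to -0.11 and leaving out wild-type replicate 2 moved it to 0.10.

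SLC7A11, the other light chain in the set, brings in cystine in exchange for glutamate and thereby feeds glutathione synthesis. Its level was 52.7, 58.2 and 59.3 CPM in wild-type and 64.5, 64.6 and 67.8 CPM in knockout libraries. The genotypes did not overlap, but the gap between them was narrow. SLC7A11 (ENSG00000151012.13, chromosome 4 from 138164097 to 138242349, minus strand) rose 1.16-fold (95% confidence interval 1.05 to 1.27, log2 fold change 0.21, edgeR adjusted p = 0.0169). SLC7A11 no longer passed when wild-type replicate 1 was left out (log2 fold change 0.16, adjusted p = 0.0594), when knockout replicate 3 was left out (0.18, adjusted p = 0.08) or with offsets for length and GC content (0.12, adjusted p = 0.119).

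Relative to their common heavy chain, the SLC7A11 transcript was lower in knockout cells. The log2 ratio of SLC7A11 to SLC3A2 counts was -3.56, -3.18 and -3.42 in wild-type and -4.36, -4.26 and -4.16 in knockout libraries, a difference of -0.88 in means. The values did not overlap (exact two-sided permutation p = 0.1, the smallest that 3 against 3 allows, adjusted p = 0.133 over the 4 ratios tested). Within the 6 light chains known to pair with SLC3A2 (SLC7A5, SLC7A6, SLC7A7, SLC7A8, SLC7A10 and SLC7A11), SLC7A5 made up 90.84% ± 0.67 of the summed level per kilobase of transcript in wild-type and 95.01% ± 0.17 in knockout libraries (SD, n = 3 each). The share of SLC7A11 was 3.85% ± 0.16 and 2.19% ± 0.11. SLC7A6, a light chain that exchanges cationic for neutral amino acids, was at 46.6 ± 0.9 and 51.4 ± 1.0 CPM and was not called (log2 fold change 0.14, edgeR adjusted p = 0.103). Scaled by library size alone, SLC7A6 was called higher (0.19, adjusted p = 0.0322). SLC7A10 had no counts. The summed light chains per SLC3A2, in the same unit, were 0.489 ± 0.069 in wild-type and 0.466 ± 0.021 in knockout libraries, a difference smaller than the spread between wild-type libraries.

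**Figure D2:**
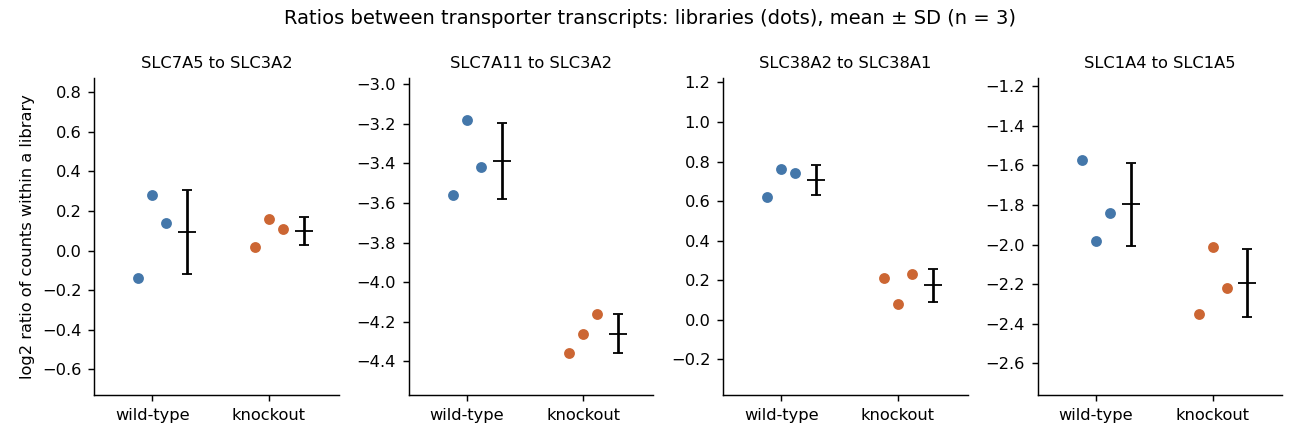
Log2 ratio of the counts of 2 transporter transcripts within each library (dots), with mean and SD over 3 libraries a genotype; each panel spans the same range on the vertical axis. SLC7A5 to SLC3A2 overlaps between genotypes (difference in means 0.00), while the other ratios are lower in every knockout library than in every wild-type library, by 0.88, 0.53 and 0.40 in means.

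SLC7A1 (CAT-1), the uniporter for arginine, lysine and ornithine, was at 154.9, 165.4 and 182.9 CPM in wild-type cells and at 241.8, 217.7 and 243.9 CPM in knockout libraries. All knockout libraries were above all wild-type libraries. SLC7A1 (ENSG00000139514.13, chromosome 13 from 29509414 to 29595688, minus strand) rose 1.40-fold (95% confidence interval 1.28 to 1.53, log2 fold change 0.48, SE 0.06, edgeR adjusted p = 4.96e-06). SLC7A2, a related cationic carrier that was not chosen as a member, went the other way, from 12.99 ± 0.87 to 9.85 ± 1.03 CPM (log2 fold change -0.40, edgeR adjusted p = 0.0163). The call of SLC7A2 was lost with DESeq2 (adjusted p = 0.053), without wild-type replicate 3 (adjusted p = 0.0663) and without knockout replicate 2 (adjusted p = 0.0762).

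The exchangers of small neutral amino acids, which are close paralogs, changed by different amounts. SLC1A5 (ASCT2), a main route for glutamine in many tumour cells, was at 274.3, 289.7 and 293.9 CPM in wild-type and at 454.5, 385.7 and 451.2 CPM in knockout libraries. The knockout values were all higher, with replicate 2 the lowest of them. SLC1A5 (ENSG00000105281.13, chromosome 19 from 46774883 to 46788594, minus strand) rose 1.51-fold (95% confidence interval 1.38 to 1.64, log2 fold change 0.59, SE 0.06, edgeR adjusted p = 2.26e-07).

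SLC1A4 (ASCT1), which exchanges alanine, serine and cysteine, was at 92.2, 73.7 and 81.9 CPM in wild-type and at 88.8, 95.9 and 96.8 CPM in knockout libraries. Wild-type replicate 1 lay above knockout replicate 1, so the genotypes overlapped. SLC1A4 (ENSG00000115902.11, chromosome 2 from 64988477 to 65023865, plus strand) was called higher by a narrow margin (1.14-fold, 95% confidence interval 1.02 to 1.26, log2 fold change 0.18, edgeR adjusted p = 0.0481). The call was lost in 8 of 14 alternatives, with DESeq2 (adjusted p = 0.0811), with limma-voom (adjusted p = 0.0554) and on leaving out wild-type replicate 2 (0.10 on the log2 scale, adjusted p = 0.3) among them, and with replicate number as a block (0.19, adjusted p = 0.0655). Without wild-type replicate 1 its log2 fold change was 0.27. The log2 ratio of SLC1A4 to SLC1A5 was -1.57, -1.98 and -1.84 in wild-type and -2.35, -2.01 and -2.22 in knockout libraries, so the groups were apart by the gap between -1.98 and -2.01 (difference in means -0.40, exact two-sided permutation p = 0.1, adjusted p = 0.133).

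The sodium-coupled carriers of the SLC38 family moved in opposite directions. SLC38A1 (SNAT1), which takes up glutamine, alanine and related amino acids, was at 246.1, 227.4 and 230.3 CPM in wild-type and at 305.5, 315.8 and 309.6 CPM in knockout libraries, with no overlap. SLC38A1 (ENSG00000111371.16, chromosome 12 from 46183063 to 46270017, minus strand) rose 1.32-fold (95% confidence interval 1.23 to 1.42, log2 fold change 0.40, SE 0.05, edgeR adjusted p = 2.36e-06).

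SLC38A2 (SNAT2), the family member best known for induction when amino acids are withdrawn or cells are placed in hypertonic medium, was at 379.0, 386.4 and 383.7 CPM in wild-type and at 353.9, 334.1 and 364.2 CPM in knockout libraries. Each knockout library was below each wild-type library, by little. SLC38A2 (ENSG00000134294.14, chromosome 12 from 46358188 to 46372773, minus strand) fell by 0.13 on the log2 scale (95% confidence interval -0.23 to -0.02, edgeR adjusted p = 0.0456). The call was lost in 7 of 14 alternatives. These were DESeq2 size factors (adjusted p = 0.0511), library size alone (log2 fold change -0.08, adjusted p = 0.198), the replicate block (adjusted p = 0.0743) and leaving out wild-type replicate 2 or 3 (adjusted p = 0.107 and 0.0867) or knockout replicate 1 or 2 (adjusted p = 0.0882 and 0.196). The fitted value was below 0 in every alternative tried, from -0.19 to -0.08. The upper end of the interval for SLC38A2, -0.02, lay below the lower end of that for SLC38A1, 0.30. Within libraries, the log2 ratio of SLC38A2 to SLC38A1 was 0.62, 0.76 and 0.74 in wild-type and 0.21, 0.08 and 0.23 in knockout libraries, a difference of -0.53 in means (exact two-sided permutation p = 0.1, adjusted p = 0.133).

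SLC6A9 (GlyT1), the sodium- and chloride-coupled glycine transporter, and SLC43A1 (LAT3), a facilitated carrier of leucine and related amino acids, were among the members with few counts. SLC6A9 was at 16.3, 15.5 and 19.5 CPM in wild-type and at 24.1, 20.2 and 21.3 CPM in knockout libraries. The genotypes were apart by less than 1 CPM. SLC6A9 (ENSG00000196517.13, chromosome 1 from 43991500 to 44031467, minus strand) rose 1.28-fold (95% confidence interval 1.09 to 1.499, log2 fold change 0.35, SE 0.11, edgeR adjusted p = 0.0142). SLC6A9 no longer passed when wild-type replicate 2 (0.28 on the log2 scale, adjusted p = 0.0855) or knockout replicate 1 (0.27, adjusted p = 0.095) was left out. CCDC24, whose mean was 4.57 CPM (wild-type) and 3.47 CPM (knockout), overlaps SLC6A9 on the opposite strand; because the strand setting of the counting was not given, reads from the shared stretch cannot be told apart.

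SLC43A1 was at 17.2, 14.6 and 13.7 CPM in wild-type and at 14.0, 17.6 and 17.6 CPM in knockout libraries. Each genotype had libraries near 14 and near 17 CPM. SLC43A1 (ENSG00000149150.9, chromosome 11 from 57484534 to 57515780, minus strand) had a log2 fold change of 0.11 (95% confidence interval -0.14 to 0.37, edgeR adjusted p = 0.493), so a ratio of knockout to wild-type anywhere from 0.907 to 1.29 is within its error. Without wild-type replicate 1 its log2 fold change was 0.21.

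Compared per kilobase of the canonical transcript, the levels of the members spanned a wide range and kept much of their order between genotypes. In wild-type cells the order was SLC3A2 (315.1 ± 30.9 CPM per kilobase), SLC7A5 (139.1 ± 14.8), SLC1A5 (99.2 ± 3.6), SLC38A2 (79.9 ± 0.8), SLC38A1 (28.97 ± 1.24), SLC7A1 (22.8 ± 1.9), SLC1A4 (18.1 ± 2.0), SLC43A1 (6.04 ± 0.71), SLC7A11 (5.88 ± 0.36) and SLC6A9 (5.34 ± 0.66; SD, n = 3). The libraries of neighbours in this order did not overlap down to SLC1A4 and SLC43A1, and the last 3 overlapped. In knockout cells the first 7 places were the same, with SLC3A2 at 667.5 ± 31.3, SLC7A5 at 295.0 ± 7.6 and SLC1A5 at 149.4 ± 13.5 CPM per kilobase. The last places there were SLC6A9, SLC7A11 and SLC43A1 (6.82 ± 0.64, 6.80 ± 0.19 and 6.53 ± 0.82 CPM per kilobase), which again overlapped. These levels depend on the isoform taken, and SLC7A11 has a long canonical transcript of 9645 bases.

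**Figure D3:**
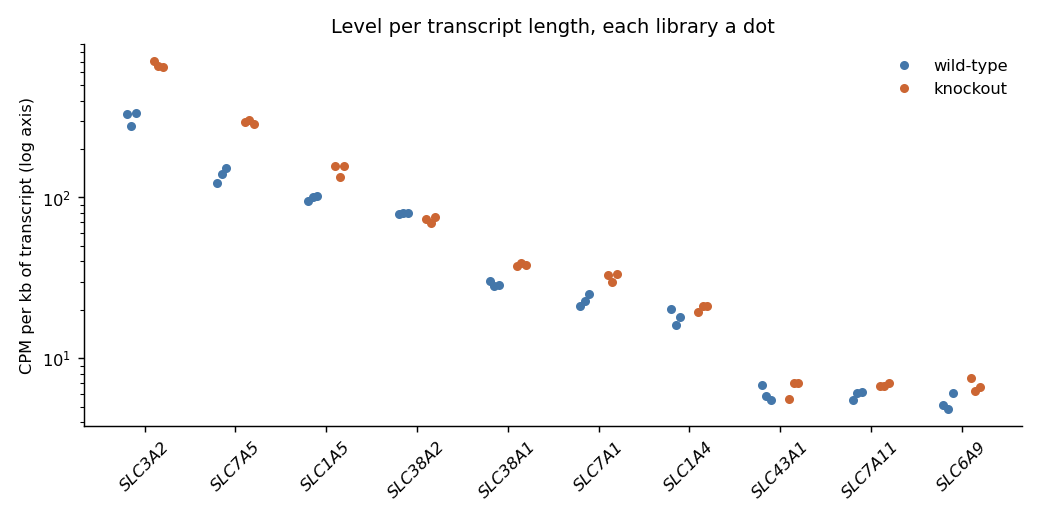
Level per kilobase of canonical transcript (log axis) of the members in each library (dots), ordered by the wild-type mean. SLC3A2 and SLC7A5 rank first in both genotypes, and SLC43A1, SLC7A11 and SLC6A9 overlap near 6 CPM per kilobase.

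Summed over the members, the level was 2471 ± 109 CPM with DUS1L intact and 4126 ± 83 CPM in knockout libraries (SD, n = 3 each), without correction for length. SLC7A5 and SLC3A2 made up 83.0% of that difference. The other 8 members summed to 1243 ± 19 and 1524 ± 64 CPM.

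Other amino acid transporters of the plasma membrane and lysosome were called in both directions. Of 43 genes listed, 22 had enough counts to be tested, of which 4 were higher, 3 were lower and 15 were not called (median log2 fold change 0.15). These counts stand beside 20.5% and 20.7% of all genes. The 21 genes left out had at most 20 counts in any library. With library size alone as the scaling 8 were higher and 3 lower, and without wild-type replicate 3 the number lower was 1.

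The glutamate and aspartate carriers SLC1A1 and SLC1A3 changed in opposite directions. SLC1A1 (EAAT3) was at 36.98, 28.2 and 27.7 CPM in wild-type and at 13.3, 14.2 and 14.6 CPM in knockout libraries, and fell by 1.14 on the log2 scale (SE 0.11, edgeR adjusted p = 1.23e-07). SLC1A3 (EAAT1), chosen for mention after its values were seen, was at 20.1, 14.6 and 21.1 CPM in wild-type and at 33.8, 28.6 and 29.3 CPM in knockout libraries (log2 fold change 0.72, edgeR adjusted p = 0.000123). The groups did not overlap for either gene. The other 3 transporters called higher are known from lysosomes. They were SLC36A1 (PAT1), a proton-coupled carrier of small amino acids, from 18.6 ± 0.5 to 27.1 ± 0.5 CPM (edgeR adjusted p = 5.78e-05), SLC38A7 (SNAT7), which exports glutamine and asparagine, from 21.4 ± 1.4 to 31.2 ± 2.6 CPM (adjusted p = 8.75e-05), and SLC66A1 (PQLC2), an exporter of cationic amino acids, from 22.8 ± 1.4 to 34.2 ± 1.0 CPM (adjusted p = 1.49e-05). Other lysosomal genes of the list were not called, with SLC38A9 at 18.0 ± 2.5 and 21.3 ± 0.6 CPM (adjusted p = 0.0775), CTNS at 24.5 ± 1.7 and 26.8 ± 0.9 CPM (adjusted p = 0.275) and MFSD12 at 177.0 ± 23.1 and 199.2 ± 7.4 CPM (adjusted p = 0.102). SLC38A10 fell by 0.22 on the log2 scale (edgeR adjusted p = 0.01), a call lost without wild-type replicate 3 (adjusted p = 0.0643) or knockout replicate 3 (adjusted p = 0.0589).

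**Figure D4:**
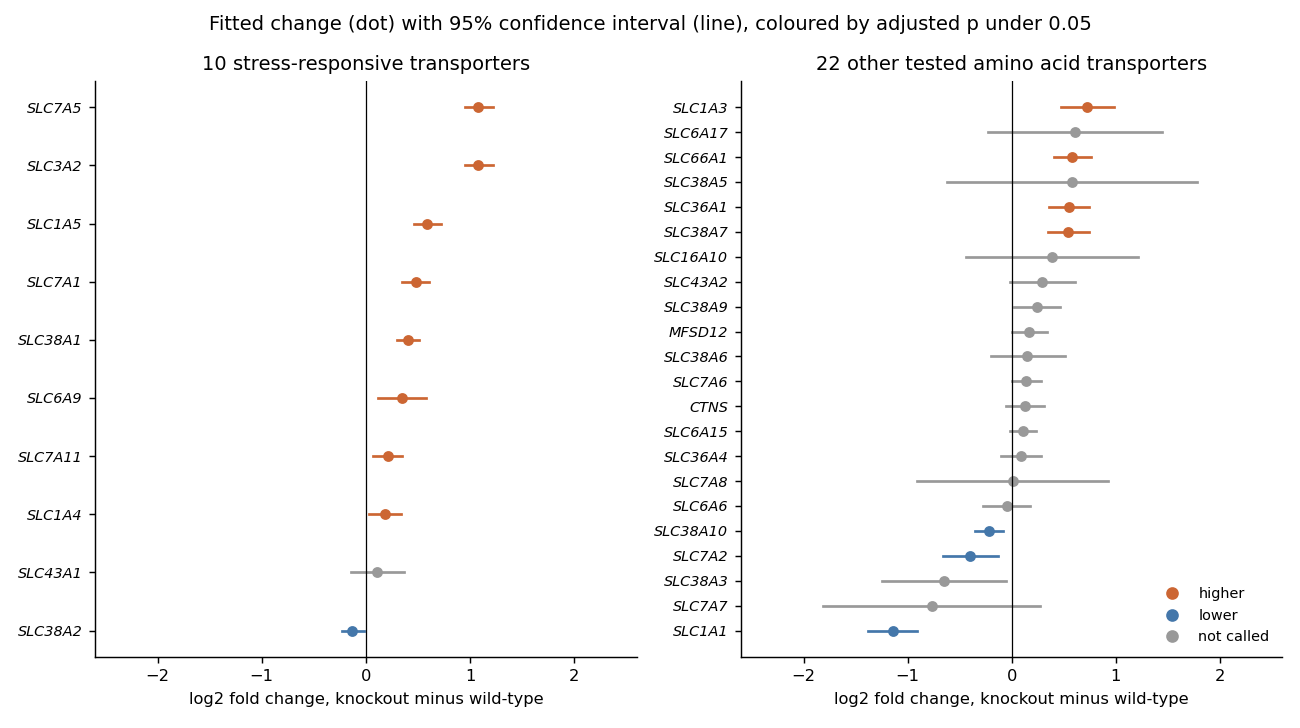
Fitted log2 fold change, knockout minus wild-type (dots), with 95% confidence intervals (lines) for the 10 members and the 22 other tested amino acid transporters; orange marks genes called higher, blue called lower and grey not called at an adjusted p of 0.05. Of the members, 8 are higher and 1 lower, and of the others 4 are higher and 3 lower.

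Mitochondrial amino acid carriers were called in both directions, with 2 of 11 tested genes higher and 3 lower (median log2 fold change 0.02), shares near the 20.5% and 20.7% of all genes. SLC25A44, which carries branched-chain amino acids into mitochondria, rose from 66.9 ± 3.6 to 85.99 ± 2.54 CPM and SLC25A38, linked to glycine supply for heme, from 46.1 ± 2.8 to 55.98 ± 3.81 CPM (edgeR adjusted p = 0.000103 and 0.00468). SFXN3, of the family of mitochondrial serine carriers, fell from 89.3 ± 3.5 to 65.9 ± 4.4 CPM (adjusted p = 1.72e-05). SLC25A29, a carrier of basic amino acids, fell by 0.31 on the log2 scale (edgeR adjusted p = 0.0133), which did not pass without wild-type replicate 2 (adjusted p = 0.0585) or knockout replicate 2 (adjusted p = 0.0738). SFXN2, of the same family as SFXN3, was near the threshold (7.95 ± 1.89 and 5.66 ± 1.11 CPM, adjusted p = 0.0464). Without wild-type replicate 2, 1 carrier was lower.

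Among other genes of the ATF4 pathway, 20 of 25 were higher and 2 were lower (median log2 fold change 0.55), beside 20.5% and 20.7% of all genes; without wild-type replicate 1 the number lower was 1. The mean level of ATF4 mRNA was 445.3 CPM (wild-type) and 524.8 CPM (knockout) (log2 fold change 0.24, edgeR adjusted p = 0.00585, and 0.17 with adjusted p = 0.059 without knockout replicate 3). ATF4 is regulated mainly in translation, which gene counts do not measure. The smallest p-values in the list belonged to STC2, a secreted glycoprotein gene, from 42.8 ± 5.2 to 91.97 ± 3.54 CPM, ASNS, asparagine synthetase, from 107.1 ± 7.4 to 188.7 ± 11.7 CPM, ATF3, a stress-induced transcription factor, which rose by 1.83 on the log2 scale, and SESN2, a leucine-binding inhibitor of mTORC1 signalling, from 48.1 ± 5.8 to 106.0 ± 10.5 CPM (edgeR adjusted p = 1.25e-09, 2.88e-09, 5.09e-08 and 1.2e-07). The genes for the proline synthesis enzyme ALDH18A1 and for the lipoprotein receptor VLDLR were the 2 called lower, with log2 fold changes of -0.32 and -0.40.

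Genes that sense amino acids for mTORC1 and GCN2 were called higher in 9 and lower in 4 of 40 tested (median log2 fold change 0.05), where 20.5% and 20.7% of all genes were. Among those higher is SESN2, which is also counted in the ATF4 list. The number lower was 2 without wild-type replicate 2, without knockout replicate 1, without knockout replicate 3 or with library size alone, and 7 after correction for length and GC content. FLCN and FNIP1, which form a complex that acts on Rag GTPases at the lysosome, rose from 29.9 ± 2.1 to 60.5 ± 4.9 CPM and from 38.6 ± 4.5 to 67.9 ± 1.6 CPM (edgeR adjusted p = 5.07e-09 and 7.26e-08). RRAGC, a Rag GTPase, rose from 58.0 ± 2.0 to 90.9 ± 1.0 CPM (adjusted p = 5.07e-08). LAMTOR2 and LAMTOR5, subunits of the Ragulator complex that anchors Rag GTPases, fell by 0.42 and 0.19 on the log2 scale, RRAGA, another Rag GTPase, by 0.18 and TBC1D7, a subunit of the TSC complex, by 0.41 (edgeR adjusted p = 9.73e-05, 0.0192, 0.0137 and 0.0271). EIF2AK4, the GCN2 kinase activated by uncharged tRNA, had a log2 fold change of -0.07 (adjusted p = 0.386). MTOR had one of -0.13 (adjusted p = 0.109).

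Of 10 tested genes of glutamine use, 5 were higher and 2 lower (median log2 fold change 0.14), against 20.5% and 20.7% of all genes, and the number lower was 1 without knockout replicate 1 or with library size alone. GFPT1, which uses glutamine for hexosamine synthesis, rose from 112.4 ± 5.5 to 156.7 ± 3.5 CPM and GOT1, the cytosolic aspartate aminotransferase, from 88.3 ± 10.1 to 117.3 ± 1.6 CPM (edgeR adjusted p = 8.92e-07 and 8.26e-05). GPT2 (log2 fold change 0.26) and ASNS, which uses glutamine, were called higher too, and both also stand in the ATF4 list. GLUD1 and GOT2, mitochondrial enzymes of glutamate metabolism, fell by 0.25 and 0.18 on the log2 scale (adjusted p = 0.00079 and 0.0123).

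For glutathione synthesis and cystine use, 6 of 16 genes were higher and 2 were lower (median log2 fold change 0.01). Among those higher is CTH, which is also counted in the ATF4 list. Over all genes 20.5% were higher, 20.7% lower and 41.2% called in either direction. GCLM, the modifier subunit of glutamate-cysteine ligase, rose from 62.0 ± 4.9 to 89.6 ± 3.7 CPM (edgeR adjusted p = 2.81e-06), whereas its catalytic partner GCLC was at 43.7 and 43.4 CPM on average (adjusted p = 0.933). NFE2L2 and BACH1, an activator and a repressor of antioxidant genes including SLC7A11, rose by 0.35 and 0.61 on the log2 scale (adjusted p = 5.07e-05 and 1.37e-06). MAT2A, which makes S-adenosylmethionine from methionine, fell from 341.7 ± 6.2 to 257.6 ± 9.7 CPM (adjusted p = 1.69e-06), and GSR, the glutathione reductase, fell by 0.23 on the log2 scale (edgeR adjusted p = 0.0225). The number lower was 1 without wild-type replicate 3, without knockout replicate 2 or with library size alone.

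Genes listed for arginine, leucine and glycine use were lower in 7 of 14 tested and higher in none at an adjusted p under 0.05 (median log2 fold change -0.22, with 20.7% of all genes lower and 20.5% higher). Without wild-type replicate 1 the number higher was 1. The 7 lower genes were SHMT1, GLDC, GCSH, DLD, BCKDHA, BCKDHB and BCKDK. Of the arginine genes, ARG2, ASS1 and ASL were not called (edgeR adjusted p = 0.361, 0.43 and 0.0965), and ARG1 and NOS2 had too few counts to be tested. BCAT1 and BCAT2 were not called either. GLDC, the glycine decarboxylase, fell from 6.49 ± 1.09 to 2.53 ± 0.87 CPM (edgeR adjusted p = 9.08e-05). SHMT1, which interconverts serine and glycine, fell from 60.2 ± 4.6 to 43.9 ± 1.7 CPM (adjusted p = 4.04e-05), and the branched-chain keto acid dehydrogenase genes BCKDK and BCKDHA, a kinase and a subunit, fell by 0.44 and 0.31 (adjusted p = 4.22e-05 and 0.00373).

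**Figure D5:**
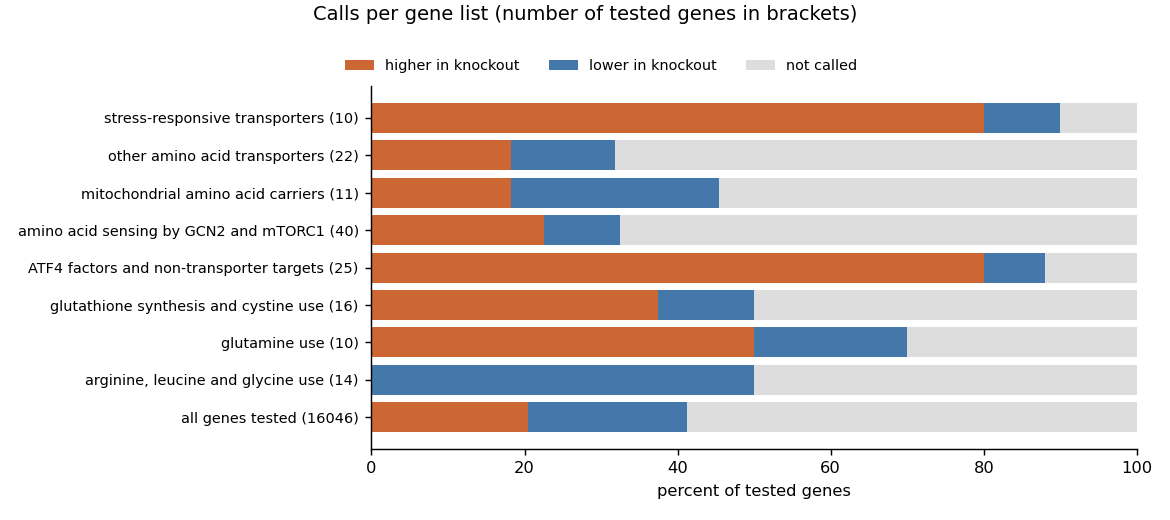
Percent of tested genes called higher (orange), called lower (blue) or not called (grey) at an adjusted p of 0.05 in each gene list, with the number of tested genes in brackets. Among the 10 stress-responsive transporters 8 were higher, among the 25 other ATF4 pathway genes 20, and among the 16046 genes tested 20.5%. Some genes stand in several lists.

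The protein-coding genes whose log2 CPM followed SLC7A5 most closely over the 6 libraries were KRT80, a keratin gene (Pearson r = 0.9984), PLXNB2, a semaphorin receptor gene (0.9982), ABHD11 (0.9982) and TIFA, an adaptor of NF-kB signalling (0.9981). Of the 13487 genes compared, 13.3% had an r over 0.9. The libraries share 2 genotypes, so these values mostly reflect genes that differ between genotypes. KRT80 rose from 46.7 ± 7.0 to 108.6 ± 5.3 CPM (log2 fold change 1.22, edgeR adjusted p = 1.8e-08) and TIFA from 20.4 ± 1.8 to 36.4 ± 1.1 CPM (0.84, adjusted p = 2.57e-07).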

How the data were processed

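The authors deposited a table of estimated counts per gene, not normalized, for 6 RNA-seq libraries of A375 cells; per the submitters' processing notes reads were processed against hg38. For the aligner, counter, strand setting and annotation: not given in the sources used here. Between 23.6% and 24.8% of nonzero values were fractional, and they were rounded. Of 63086 identifiers, 62541 (99.1%) matched GENCODE release 44. Groups came from the sample titles.

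Genes passing edgeR's filterByExpr (minimum count 10) were scaled by TMM and tested with edgeR 4.0.16 in R 4.3.3 (robust quasi-likelihood, group as the only term, two-sided), adjusted by Benjamini-Hochberg over 16046 genes at 0.05. SE came from the fold change and its F. Ratios within libraries (pseudocount 0.5) had exact permutation tests. The fit was also run on simulated counts with far fewer altered genes than were called here, as many raised as lowered. That run does not check the scaling or the error rate when many genes change. Alternatives were other scalings and filters, DESeq2 1.42.0, limma-voom (limma 3.58.1), a replicate block, each library left out, and offsets for transcript length and GC content. Within genotypes, libraries differed by more than sampling noise (chi-square per degree of freedom 3.74 to 7.25). P-values reflect only the spread among these libraries.

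The members, gene lists and tests were chosen with earlier results of these data known. Named were all members, DUS1L, up to 4 tested non-members with the smallest p per list, and the 4 genes most correlated with SLC7A5. Any other gene was named after its values were seen. One listed gene had no match. Some values are not reported here.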

Additional observations from a re-analysis of the deposited data

How the results depend on the processing

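In all 14 alternative fits SLC7A5 (log2 fold change 1.01 to 1.16), SLC3A2 (1.00 to 1.13), SLC1A5 (0.55 to 0.66), SLC7A1 (0.40 to 0.55) and SLC38A1 (0.33 to 0.45) were called higher, and none of the 10 members changed direction. The number of members higher was 8, 7 with DESeq2, limma-voom or the replicate block, 6 with length and GC offsets, and 6 to 7 with a library left out. The number lower was 1 and became 0 with DESeq2 size factors, with library size alone and with the replicate block, and was 0 to 1 with a library left out, as the SLC38A2 call is near the threshold. Among the other amino acid transporters the number higher became 8 with library size alone, and the number lower was 1 to 4 with a library left out. The difference in the SLC7A5 to SLC3A2 log2 ratio, 0.00, was -0.11 to 0.10 with a library left out and so has no direction. Same-numbered libraries did not deviate together over the tested genes (correlations -0.03, 0.00 and 0.03), so no pairing by number was seen. A shared shift in few genes would not show in these values, and the titles do not say whether such libraries were prepared together. The replicate block gave 3122 higher and 3119 lower genes against 3288 and 3320, and ended the calls of SLC1A4 and SLC38A2. Calls of SLC7A11, SLC1A4, SLC6A9 and SLC38A2 depend on single libraries. Every member had 236 counts or more in each library, and precision also rests on 3 libraries a group.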
